A study of Mus musculus with 8 samples.

Results

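The 31 genes described here code for the junctions and surface adhesion of the intestinal epithelium: 9 claudins, 4 further tight junction membrane proteins, 6 tight junction plaque and polarity proteins, 5 adherens junction proteins, 6 desmosome proteins and the adhesion molecule Epcam. They were listed by name, with earlier results of these data known, and all 31 were found among the 53465 genes of the expression table. The samples came from the colon of 8 mice on the B6 background, 4 with a conditional Arg1 knockout (Arg1 ko) and 4 littermates that express Arg1 (wild type), with age and sex matched and an age of 7 to 12 weeks. Arg1 codes for arginase 1, an enzyme that turns arginine into urea and ornithine. All 8 mice, wild type included, had colitis from dextran sulfate sodium (DSS), a salt that injures the colonic epithelium, given at 2.5% with the drinking water for a week and then withdrawn until day 10. No mouse without DSS is among the samples, so the values describe the genotypes within injured colon only. The deletion is described as cell-specific, and no source used here names the cell type or the Cre driver. RNA was labelled as colon tissue, while the protocol describes sheets of epithelium shaken off with EDTA.

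Neighbouring epithelial cells are held together by tight junctions, adherens junctions and desmosomes, which lie in that order from the lumen downward. Tight junctions close the space between cells: claudins form the seal or, in some family members, channels for ions and water, and ZO proteins tie them to actin. Adherens junctions join cells through cadherins and catenins, desmosomes anchor keratin filaments, and loss of this barrier is a known feature of colitis.

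Values are rlog values, that is log2 expression scaled for library size and drawn toward the gene's mean, so a difference of 1 is close to a doubling and folds are understated for weak genes. Differences are Arg1 ko minus wild type from limma, with Benjamini-Hochberg adjustment over the 16380 genes whose mean rlog reached 3 and whose values were not constant. Each library came from its own mouse, and depth is unknown because the table gives no counts. Arg1 itself had rlog values of 5.06, 4.87, 5.15 and 5.19 in Arg1 ko libraries and 5.59, 5.57, 5.02 and 5.58 in wild-type libraries. The library labelled wild type 3 therefore lay within the range of the Arg1 ko libraries, against its label. The Arg1 difference was -0.37 with a standard error (SE) of 0.15 (limma adjusted p = 0.522). Permuting the genotypes (exact, two-sided) gave p = 0.114, where the smallest possible p is 0.0286. With that library left out, Arg1 differed by -0.51 (limma adjusted p = 0.0418). Because the library was singled out by its Arg1 value, leaving it out had to widen the Arg1 difference. That p is therefore no check of the labels. The Arg1 transcript has 1477 bases. Genes under 3 kb had a median deviation from their own means of -0.10 in that library and -0.08 to -0.01 in Arg1 ko libraries. It was 0.21, 0.11 and -0.06 in wild type 1, 2 and 4. After the transcript length correction described below, the Arg1 difference was -0.25 (SE 0.14, limma adjusted p = 0.513). The part of transcript length in the Arg1 values was not tested. The sample numbers of the genotypes form separate runs, so a difference in handling between those runs and the genotype cannot be told apart.

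Epithelial RNA was abundant in every library: the mean rlog over 10 epithelial identity genes ranged over 13.91 to 14.10 in Arg1 ko and 13.86 to 14.24 in wild-type libraries. Non-epithelial RNA was present as well. The mean over 6 smooth muscle genes was 13.88 to 14.07 in Arg1 ko and 13.68 to 14.18 in wild-type libraries. The other lists, each as a mean rlog per library, gave these ranges. Surface colonocyte genes (9) spanned 13.77 to 14.70 in Arg1 ko and 13.61 to 14.37 in wild type, and goblet genes (8) 14.74 to 14.89 in Arg1 ko and 14.51 to 15.06 in wild type. Endothelial genes (6) spanned 8.85 to 8.97 in Arg1 ko and 8.77 to 9.14 in wild type, leukocyte genes (6) 8.84 to 9.04 in Arg1 ko and 8.54 to 9.20 in wild type, and neutrophil genes (4) 5.43 to 5.74 in Arg1 ko and 5.50 to 7.01 in wild type. Those ranges overlapped. For 3 lists the ranges did not overlap: crypt base and cycling genes (6) were at 8.56 to 8.84 in Arg1 ko and 7.73 to 8.53 in wild type, fibroblast genes (7) at 11.88 to 12.01 in Arg1 ko and 11.43 to 11.86 in wild type, and neuron and glia genes (6) at 7.53 to 7.54 in Arg1 ko and 7.56 to 8.12 in wild type. The neuron and glia ranges nearly met, at 7.540 and 7.556. By single gene, the genotypes did not overlap for 1 of 6 crypt base and cycling genes (16.7%) and 4 of 7 fibroblast genes (57.1%). This held for 0 of 6 neuron and glia genes, and for 4.03% of all genes. Of 10 squamous genes, 8 (Krt5, Krt4, Krt13, Krt1, Krt6a, Trp63, Krtdap and Dsg3) were under the filter. Krt14 and Krt10 passed it, with means of 4.75 and 5.89 in Arg1 ko and 5.17 and 6.16 in wild-type libraries. Their limma adjusted p values were 0.522 and 0.562. The mean over all 10 was 1.33 to 1.41 in Arg1 ko and 1.37 to 1.52 in wild-type libraries. The part of these cell types in any result below was not tested, and in bulk RNA fewer cells of a type and less RNA per cell cannot be told apart.

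Promoter sequence is shown for the genes on which the claudin, JAM and Epcam results below turn, since the E-box CACCTG is bound by the Snai and Zeb repressors of epithelial genes. RefSeq promoters (GRCm38.p6) were matched for 21 of the 31 genes, as 32 windows of 250 bases before to 50 after a transcript start. The 250 upstream bases are printed 5′ to 3′ on the gene's strand, with the E-box in capitals in either orientation (CACCTG, or CAGGTG for its reverse complement). Cldn4 is chr5:134946935-134947184 (minus strand), Cldn3 is chr5:134985964-134986213 (plus strand), Cldn7 is chr11:69964529-69964778 (plus strand), F11r is chr1:171437311-171437560 (plus strand) and Epcam is chr17:87635729-87635978 (plus strand).
Cldn4: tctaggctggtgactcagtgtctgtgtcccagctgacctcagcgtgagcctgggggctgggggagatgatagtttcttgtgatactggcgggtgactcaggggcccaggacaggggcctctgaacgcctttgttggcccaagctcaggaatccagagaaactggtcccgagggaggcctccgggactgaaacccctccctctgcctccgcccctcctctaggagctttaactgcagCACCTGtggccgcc
Cldn3: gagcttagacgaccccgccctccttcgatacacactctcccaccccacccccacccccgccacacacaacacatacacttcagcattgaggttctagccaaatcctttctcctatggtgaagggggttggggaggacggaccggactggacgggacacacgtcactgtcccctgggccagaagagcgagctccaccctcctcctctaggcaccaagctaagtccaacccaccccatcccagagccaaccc
Cldn7: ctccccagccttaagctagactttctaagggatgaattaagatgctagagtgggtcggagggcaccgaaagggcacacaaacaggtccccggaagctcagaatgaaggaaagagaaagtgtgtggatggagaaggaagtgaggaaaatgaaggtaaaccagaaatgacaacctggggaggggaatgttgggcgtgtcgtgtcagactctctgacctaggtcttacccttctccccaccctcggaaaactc
F11r: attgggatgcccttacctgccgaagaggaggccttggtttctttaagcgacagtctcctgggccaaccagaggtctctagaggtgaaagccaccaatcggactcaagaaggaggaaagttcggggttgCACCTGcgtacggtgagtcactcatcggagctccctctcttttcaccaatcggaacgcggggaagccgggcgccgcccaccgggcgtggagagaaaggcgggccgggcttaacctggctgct
Epcam: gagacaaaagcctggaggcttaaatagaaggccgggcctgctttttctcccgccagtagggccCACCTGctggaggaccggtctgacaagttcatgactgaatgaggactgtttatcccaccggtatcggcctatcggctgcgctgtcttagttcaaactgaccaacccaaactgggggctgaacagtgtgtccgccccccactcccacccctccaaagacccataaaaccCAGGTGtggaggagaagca
The E-box began at position -14 from the start in Cldn4, at -122 in F11r, and at -187 and -19 in Epcam. The printed bases of Cldn3 and Cldn7 held 0 E-boxes. In Cldn3 the 1 match of the whole window was not within the bases printed, and of 2 Cldn7 windows the printed one held 0 and the other held a match. Counting both strands of the whole windows, 14 of the 32 windows (43.8%), from 11 of the 21 genes, held an E-box, against 20.2% of all 32851 windows of the table and 19.02% of the 15356 windows of tested genes. Those 11 were Cldn3, Cldn4, Cldn7, F11r, Epcam, Ocln, Marveld2, Pard3, Dsp, Patj and Tjp3. Dsp, Patj and Tjp3 had higher means in Arg1 ko mice and the others lower, Marveld2 by -0.0052 and Pard3 by -0.0035. The printed genes all had lower means, and whether an E-box goes with direction was not tested. A GC box, GGGCGG, the Sp and Klf motif, was in 22 windows (68.8%), against 35.7% of all windows and 58.5% of those of tested genes, and in 0 member windows did it overlap an E-box. The Cdx2 letters TTTATNG were in 1 window, that of Epcam (3.13%, against 10.9% of all windows), the Grainyhead letters AACNGGTT in 1, that of Cgn (3.13%, against 2.09%), and the Hnf4a letters CAAAGTCCA in 0 (against 0.475%). A match is a description of the letters and no measure of binding.

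Junction RNA was plentiful in both genotypes, and by level per transcript length Epcam, Cldn7 and Cldn3 came first. On the scale of mean rlog minus log2 of the longest transcript in kb, Epcam, a homophilic adhesion protein that stabilises claudins, stood at 14.32. Cldn7, which binds Epcam, stood at 13.50 and Cldn3, a sealing claudin, at 13.19. The catenin Ctnnb1, which links cadherins to actin and carries Wnt signals, stood at 12.58, and the cadherins Cdh17 and Cdh1 at 12.32 and 12.29, a gap smaller than the SD of Cdh1 among wild-type libraries (0.17). At the low end came Tjp1 and Marveld2 at 8.45, Ctnnd1 at 8.10, Pard3 at 7.86 and Patj at 7.73. Cgnl1 stood at 6.68 and Cldn1, a sealing claudin of skin and gut, at 3.71. With the median length of the coding transcripts in place of the longest, 9 of the 10 highest genes were shared, but their order changed: Epcam stayed first, Ctnnb1 was 2, Cldn7 was 3, Ctnna1 was 4, Cldn2 was 5 and Cldn3 was 6.

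**Figure D1:**
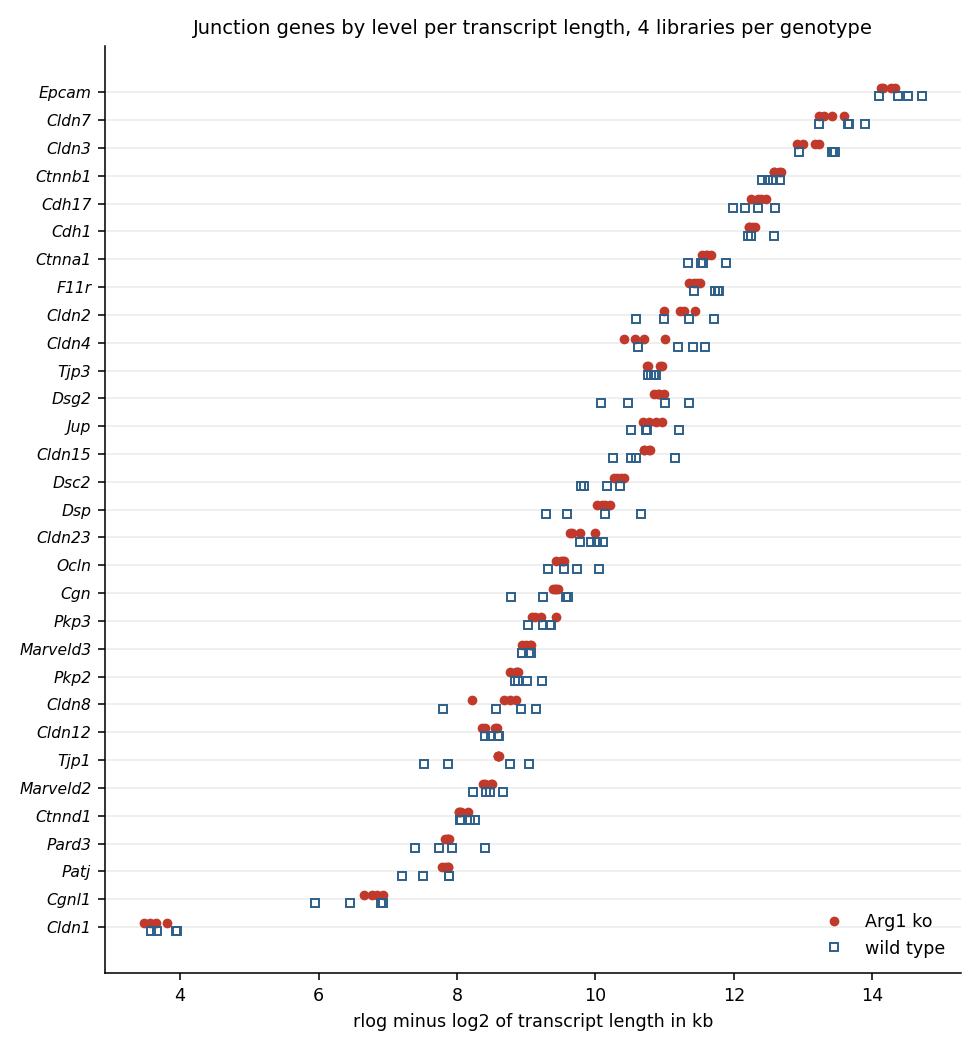
Level per transcript length (x axis, rlog minus log2 of length in kb) of the 31 junction genes (y axis, ordered by level), with Arg1 ko and wild-type libraries, 4 each, as separate points. Epcam leads at 14.32 and Cldn1 is last at 3.71, and the genotypes lie far closer together than the ends of the list.

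Between the genotypes, no junction gene passed the test. All 31 passed the filter on low values. Their means were higher in Arg1 ko than in wild-type mice for 16 and lower for 15, with a median difference of 0.02 against 0.01 over all 16380 genes, and a range of -0.53 to 0.31. By limma at an adjusted p of 0.05, 0 of the 31 were called and 0 of 16380 genes (0%), and the smallest adjusted p among them was 0.522. At an unadjusted p under 0.05 there were 3 (9.68%) against 1490 of all genes (9.1%): Dsc2 was the 1 that was higher in Arg1 ko mice (4.73% of all genes were), and Cldn4 and F11r were the 2 that were lower (4.37% of all genes). Groups without overlap, all 4 values of one genotype beyond all 4 of the other, occurred for 0 of 31 against 660 of all genes (4.03%; 2.36% with Arg1 ko higher and 1.67% with Arg1 ko lower). The median size of a difference was 0.12 in the junction genes and 0.14 over all genes. Leaving out the library labelled wild type 3 raised these counts, for all genes too: 2 of 31 (6.45%) were called, Cldn4 and F11r, against 1005 genes (6.14%), and 7 had no overlap, against 4195 genes (25.6%).

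**Figure D2:**
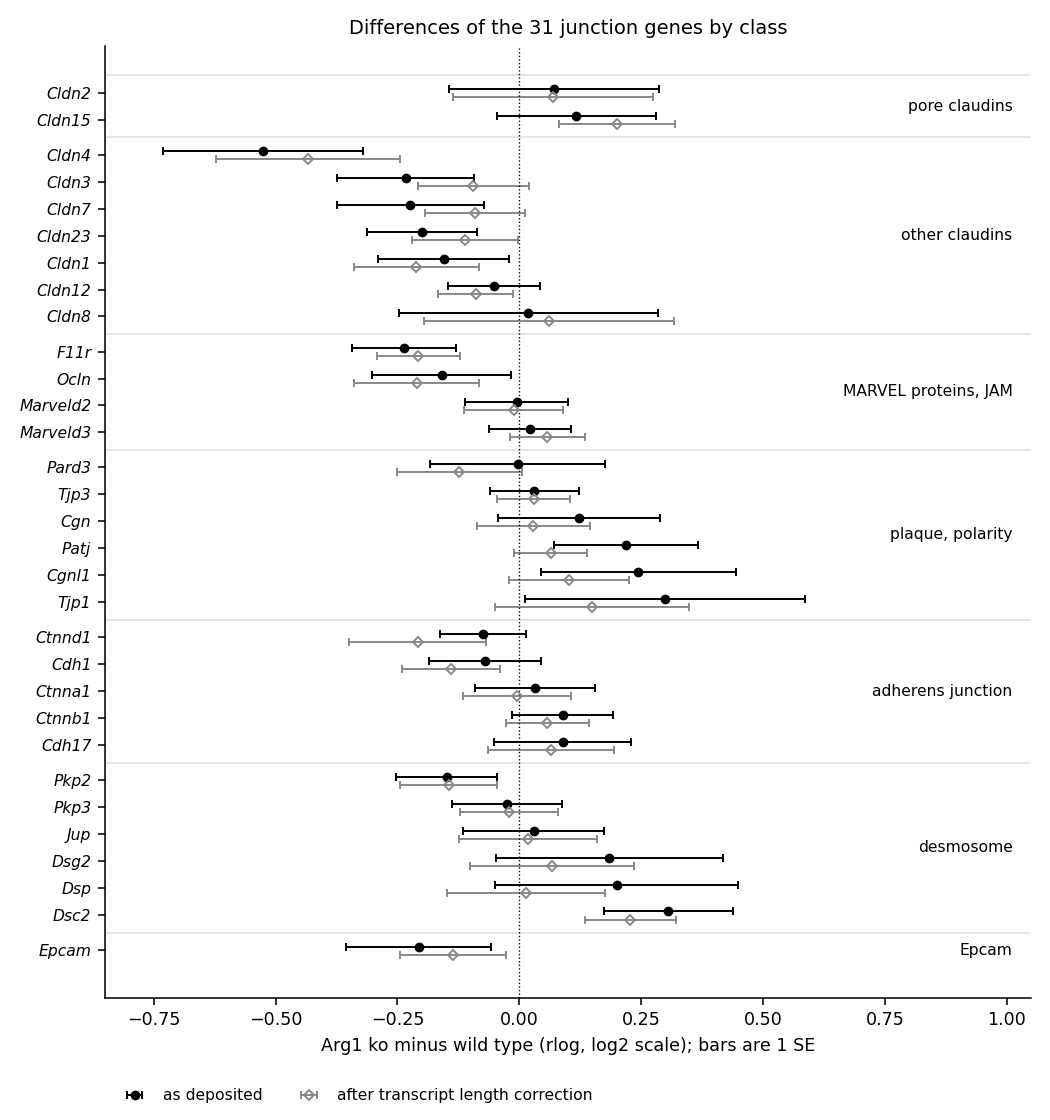
Difference of each junction gene (x axis, Arg1 ko minus wild type, rlog on a log2 scale) by class, with bars of 1 SE from limma, as deposited and after a correction for transcript length. Most claudins, F11r and Epcam lie left of 0 and most plaque and desmosome genes right of 0, and after the correction most plaque genes and all desmosome genes lie nearer to 0.

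The claudins fell into 7 that mainly seal or are of mixed role and 2 that form pores. Of the 7, means were lower in Arg1 ko for 6 and higher for 1, with a median of -0.20, and none passed the adjusted test. Cldn4 (ENSMUSG00000047501; GRCm38 chromosome 5, 134945119 to 134946934, minus strand), a claudin that limits sodium passage, had the largest difference of the 31. Its rlog values were 11.27, 11.43, 11.87 and 11.57 in Arg1 ko libraries (11.53 ± 0.25, SD, n = 4) and 12.06, 12.27, 11.47 and 12.44 in wild-type libraries (12.06 ± 0.42, SD, n = 4). All 4 Arg1 ko libraries lay below wild type 1, 2 and 4, and the library labelled wild type 3 lay among them. The difference was -0.53 (SE 0.21), a fold of 0.695 on this shrunken scale, with a limma adjusted p of 0.522. Over the alternatives the adjusted p ranged over 0.0376 to 0.872, and leaving out the library labelled wild type 3 gave -0.72 (limma adjusted p = 0.0376). Its neighbour Cldn3, 39279 bases away on chromosome 5 with no other gene of the annotation between them, had 13.24, 13.50, 13.57 and 13.33 in Arg1 ko libraries and 13.75, 13.77, 13.27 and 13.79 in wild-type libraries. The library labelled wild type 3 was again the one wild-type library inside the Arg1 ko range, and the difference was -0.23 (SE 0.14, limma adjusted p = 0.54).

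Cldn7 and Cldn23 also had lower means in Arg1 ko mice, without passing the test. Cldn7 had rlog values of 13.65, 13.83, 14.01 and 13.72 in Arg1 ko libraries and 14.32, 14.08, 13.65 and 14.06 in wild-type libraries, a difference of -0.22 (SE 0.15, limma adjusted p = 0.563). Cldn23, a claudin of the colon surface, had 10.51, 10.55, 10.87 and 10.66 in Arg1 ko libraries and 10.82, 10.91, 10.66 and 11.001 in wild-type libraries, a difference of -0.20 (SE 0.11, limma adjusted p = 0.529). In both genes the lowest wild-type library was the one labelled wild type 3, and the groups overlapped. The other 3 had differences of -0.16 (Cldn1), -0.05 (Cldn12) and 0.02 (Cldn8), each with overlapping groups.

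The pore claudins did not move beyond the spread of the wild-type mice. Cldn2, a channel for cations and water, had 13.05, 12.88, 12.60 and 12.82 in Arg1 ko libraries and 12.59, 13.32, 12.96 and 12.19 in wild-type libraries. The wild-type values spread on both sides of the Arg1 ko values, and the difference was 0.07 (SE 0.22, limma adjusted p = 0.893), with a range of -0.12 to 0.26 when each library was left out. Cldn15, a channel for sodium, averaged 11.67 ± 0.05 in Arg1 ko and 11.55 ± 0.37 in wild-type libraries (SD, n = 4 each), a difference of 0.12 (SE 0.16, limma adjusted p = 0.763). Cldn2, Cldn15 and Cldn8 had their lowest value of all 8 libraries in wild type 4.

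**Figure D3:**
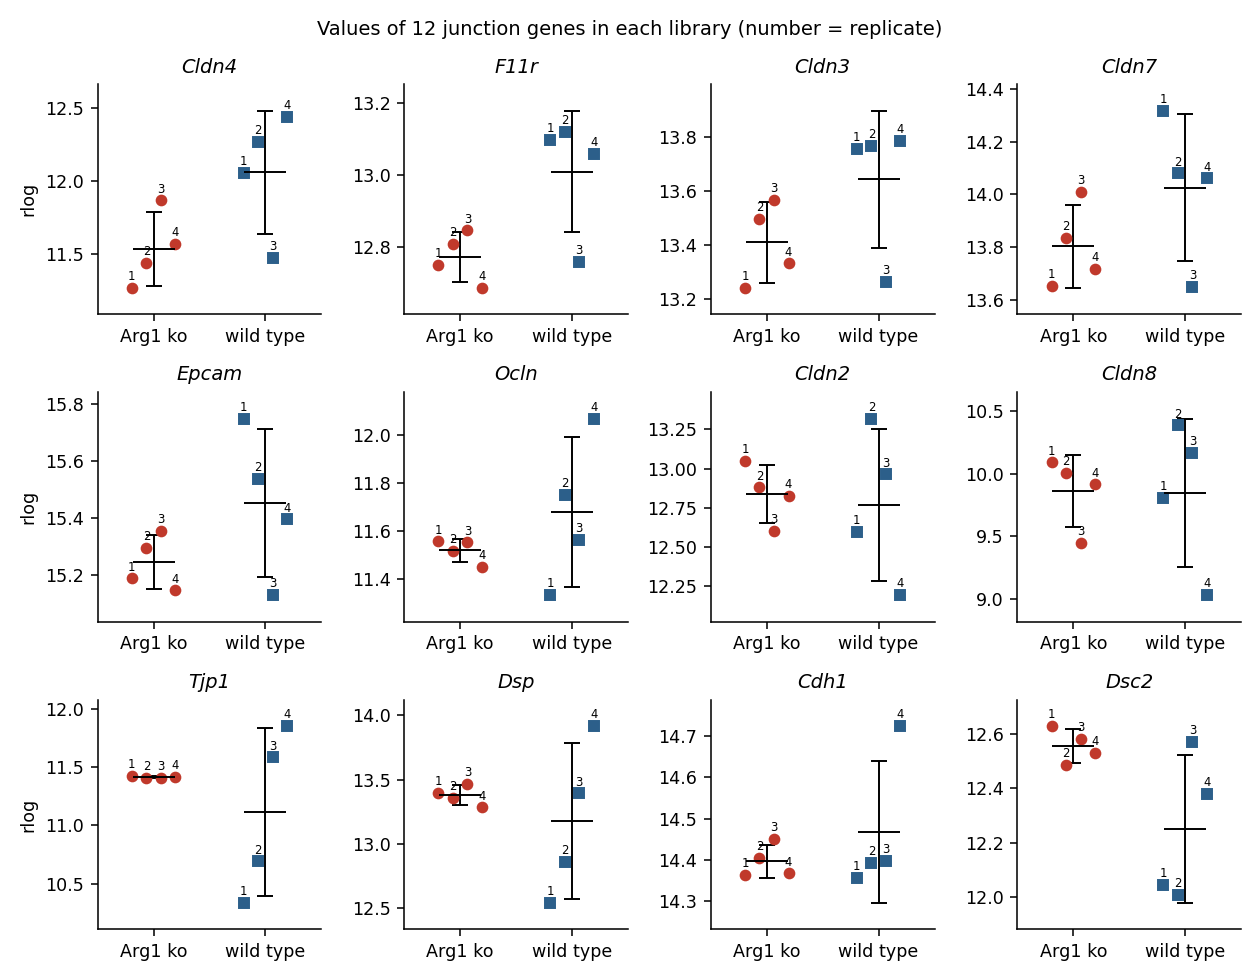
rlog values (y axis, each panel its own range) of 12 junction genes in each Arg1 ko and wild-type library, points numbered by replicate, with mean and SD as bars. In the Cldn4 and F11r panels wild type 1, 2 and 4 lie above all Arg1 ko points and the library labelled wild type 3 among them.

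Of the 4 further tight junction membrane proteins, F11r differed most. F11r (ENSMUSG00000038235; GRCm38 chromosome 1, 171437535 to 171464603, plus strand) codes for JAM-A, an immunoglobulin-like adhesion molecule of the tight junction. Its rlog values were 12.75, 12.81, 12.85 and 12.69 in Arg1 ko libraries (12.77 ± 0.07, SD, n = 4) and 13.10, 13.12, 12.76 and 13.06 in wild-type libraries (13.01 ± 0.17, SD, n = 4). As in Cldn4, only the library labelled wild type 3 overlapped the Arg1 ko libraries. The difference was -0.24 (SE 0.11), a fold of 0.848, with a limma adjusted p of 0.522 (0.0496 to 0.872 over the alternatives), and -0.32 without the library labelled wild type 3 (limma adjusted p = 0.0496). Ocln, the tetraspan protein occludin, had 11.56, 11.52, 11.55 and 11.45 in Arg1 ko libraries and 11.33, 11.75, 11.56 and 12.07 in wild-type libraries, a difference of -0.16 (SE 0.14, limma adjusted p = 0.64). All Arg1 ko values of Ocln lay inside the wild-type range. Marveld2, which sits where 3 cells meet, and Marveld3 differed by -0.01 and 0.02.

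The plaque and polarity proteins were mostly higher in Arg1 ko mice, 5 of 6 with a median of 0.17, and none passed the test. Tjp1, the scaffold ZO-1, had rlog values of 11.43, 11.41, 11.41 and 11.41 in Arg1 ko libraries and 10.34, 10.69, 11.58 and 11.85 in wild-type libraries. The Arg1 ko libraries hardly differed from each other, and the wild-type libraries lay on both sides of them, so that the difference was 0.30 (SE 0.29, limma adjusted p = 0.66) and ranged over 0.04 to 0.54 when each library was left out. Patj, a scaffold of the Crumbs polarity complex, had 10.75, 10.74, 10.70 and 10.66 in Arg1 ko libraries and 10.08, 10.39, 10.75 and 10.76 in wild-type libraries (difference 0.22, SE 0.15, limma adjusted p = 0.563). Cgnl1, paracingulin, had 9.60, 9.69, 9.42 and 9.53 in Arg1 ko libraries and 8.71, 9.20, 9.66 and 9.69 in wild-type libraries (difference 0.24, SE 0.20, limma adjusted p = 0.615). In both, wild type 1 and 2 were below and wild type 4 and the library labelled wild type 3 near the top of the Arg1 ko values or within them. Cgn, cingulin, differed by 0.12, Tjp3, ZO-3, by 0.03 and Pard3, a polarity protein, by -0.0035.

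Adherens junction genes were close to level, with 3 higher and 2 lower in Arg1 ko mice and a median of 0.03. Cdh1, E-cadherin, had 14.36, 14.41, 14.45 and 14.37 in Arg1 ko libraries and 14.36, 14.39, 14.40 and 14.72 in wild-type libraries. Only wild type 4 stood apart, and the difference was -0.07 (SE 0.11, limma adjusted p = 0.796). Ctnnb1 had 14.54, 14.44, 14.50 and 14.43 in Arg1 ko libraries and 14.26, 14.43, 14.53 and 14.35 in wild-type libraries (difference 0.09, SE 0.10, limma adjusted p = 0.717). Cdh17, a cadherin of the intestine, differed by 0.09, the catenin Ctnna1 by 0.03 and the catenin Ctnnd1 by -0.07.

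In desmosomes, 4 genes were higher and 2 lower in Arg1 ko mice, with a median of 0.11. Dsc2 (ENSMUSG00000024331; GRCm38 chromosome 18, 20030633 to 20059554, minus strand), the desmosomal cadherin desmocollin 2, had rlog values of 12.63, 12.48, 12.58 and 12.53 in Arg1 ko libraries (12.56 ± 0.06, SD, n = 4) and 12.04, 12.01, 12.57 and 12.38 in wild-type libraries (12.25 ± 0.27, SD, n = 4). Wild type 1, 2 and 4 lay below all Arg1 ko libraries, and the library labelled wild type 3 lay within them. The difference of 0.31 (SE 0.13) is a fold of 1.24 with a limma adjusted p of 0.522 (0.0568 to 0.872 over the alternatives), and was 0.41 without the library labelled wild type 3 (limma adjusted p = 0.0568). Dsp, desmoplakin, which ties the plaque to keratin, had 13.40, 13.36, 13.47 and 13.28 in Arg1 ko libraries and 12.54, 12.86, 13.39 and 13.92 in wild-type libraries. The wild-type values of Dsp ran far below and above those of the Arg1 ko libraries (difference 0.20, SE 0.25, limma adjusted p = 0.735). Pkp2, a plakophilin of the plaque, had 10.40, 10.31, 10.43 and 10.42 in Arg1 ko libraries and 10.39, 10.57, 10.43 and 10.78 in wild-type libraries (difference -0.15, SE 0.10, limma adjusted p = 0.566). The cadherin Dsg2 differed by 0.18, the plaque proteins Jup and Pkp3 by 0.03 and -0.03.

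Epcam (GRCm38 chromosome 17, 87635979 to 87651129, plus strand) had rlog values of 15.19, 15.29, 15.36 and 15.15 in Arg1 ko libraries and 15.75, 15.54, 15.13 and 15.40 in wild-type libraries. Again wild type 1, 2 and 4 were above every Arg1 ko library, and the library labelled wild type 3, at 15.13, was just under the lowest Arg1 ko value of 15.15. The difference was -0.21 (SE 0.15, limma adjusted p = 0.577).

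Junction genes varied far more among wild-type than among Arg1 ko mice, and so did most genes. The median SD of the 31 was 0.07 in Arg1 ko and 0.26 in wild-type libraries, against 0.096 in Arg1 ko and 0.258 in wild-type libraries over all genes. The SD was larger in wild type for 28 of 31 junction genes (90.3%) and for 14894 of all genes (90.9%). Among the 8 libraries, wild type 1 was lowest in 15 of 31 genes (48.4%, against 28.8% of all genes) and wild type 4 highest in 17 (54.8%, against 24.7%). The library labelled wild type 3 was the wild-type library nearest to the Arg1 ko mean in 23 of 31 (74.2%, against 49.3% of all genes) and inside the Arg1 ko range in 19 (61.3%, against 49.8%).

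**Figure D4:**
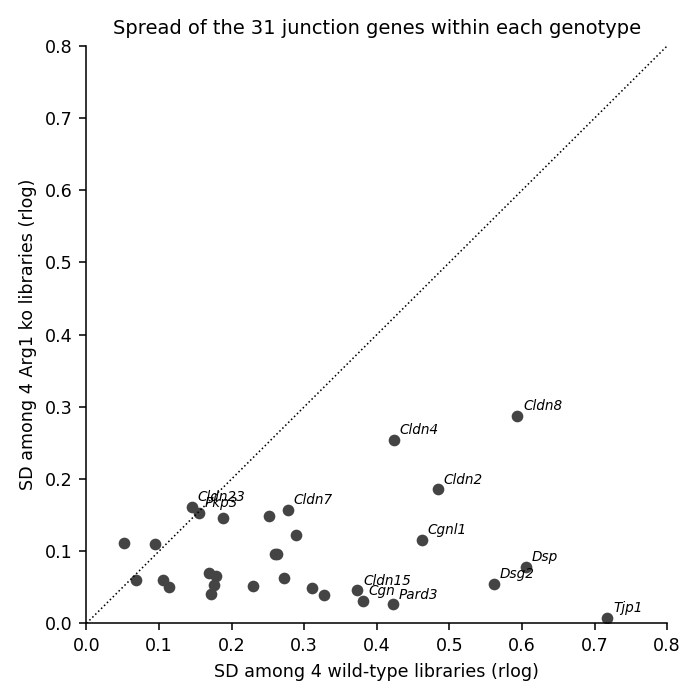
SD of each of the 31 junction genes among 4 Arg1 ko libraries (y axis, rlog) against that among 4 wild-type libraries (x axis, rlog), with the line of equal SD. For 28 of 31 genes the point lies below the line, on the wild-type side.

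The direction of a junction gene went with the length of its transcript. Of 11 genes with a longest transcript under 3 kb, 3 were higher and 8 lower in Arg1 ko mice (median -0.20). Of 12 genes from 3 to 5 kb, 7 were higher and 5 lower (median 0.03), and of 8 genes of 5 kb or more, 6 were higher and 2 lower (median 0.19). Across the 31 genes, which are not independent and share all libraries, the difference had a Pearson r of 0.67 with log2 length, against 0.39 across 16367 genes with a length. Length ordered the wild-type libraries too: the difference of wild type 1 minus wild type 4 had a median of 0.02 under 3 kb, -0.36 from 3 to 5 kb and -0.995 at 5 kb or more, with extremes of -1.51 in Tjp1 and 0.89 in Cldn15. The r of that difference with log2 length was -0.70 in the junction genes and -0.45 over all genes. For each library's deviation from the gene mean, the junction gene r was -0.83, -0.68, 0.68 and 0.33 in wild type 1 to 4. It was 0.63, 0.41, 0.14 and 0.66 in Arg1 ko 1 to 4, and all signs were the same over all genes. The library labelled wild type 3 thus sloped upward with length, as the Arg1 ko libraries did, and wild type 2 downward. Of the 8 longest genes, wild type 1 was lowest in 7 and wild type 4 highest in 6.

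After a correction for transcript length, chosen after seeing the data, 0 of 31 genes were called (0 of 16367 genes), and 3 had an unadjusted limma p under 0.05, against 1600 genes (9.78%). Those 3 were again Cldn4 (difference -0.43), F11r (-0.21) and Dsc2 (0.23). The sealing and mixed claudins had a median of -0.09 after it, against -0.20 before, and the plaque and polarity genes one of 0.05, against 0.17 before. Cldn3 and Cldn7 both came to -0.09, Tjp1 to 0.15 and Dsp to 0.01. Some genes moved further from 0, among them Ctnnd1 (-0.21), Cdh1 (-0.14), Ocln (-0.21), Cldn1 (-0.21) and Pard3 (-0.12). Across the 31 genes the corrected difference still had a Pearson r of 0.27 with log2 length. Whether RNA quality or library preparation sets the length pattern was not tested.

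**Figure D5:**
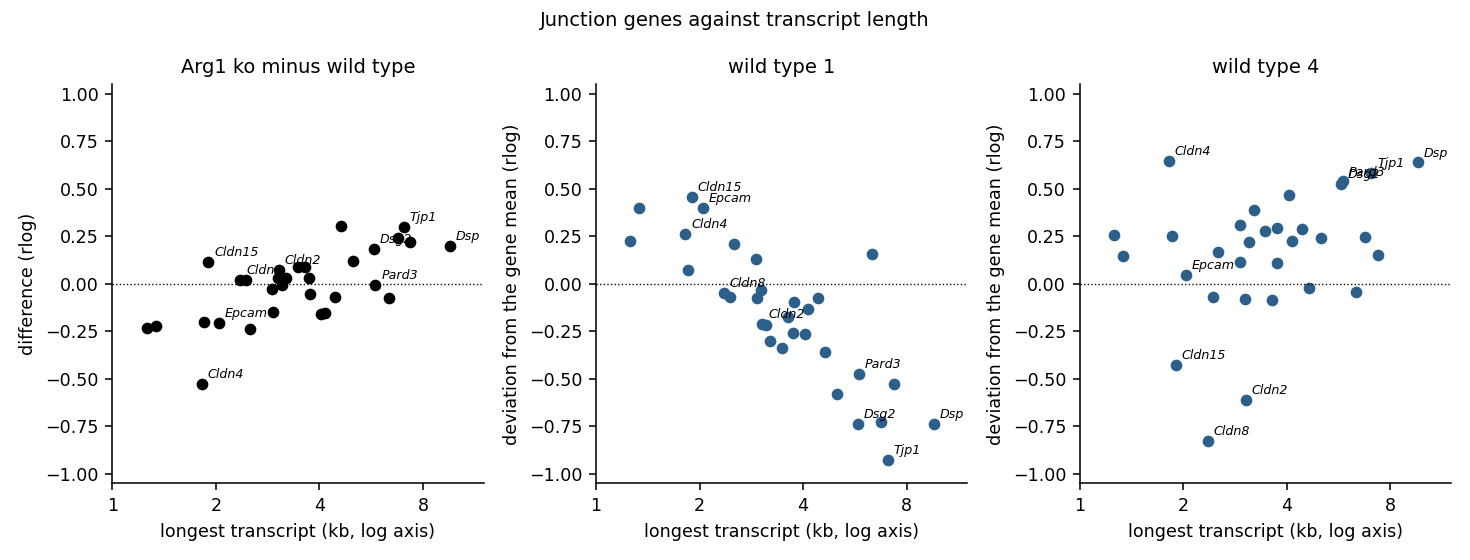
Junction genes against their longest transcript (x axis, kb, log axis), in separate panels (y axes, rlog). The panels show Arg1 ko minus wild type, and the deviations of wild type 1 and of wild type 4 from the gene mean. Short genes lie lower than long ones for Arg1 ko minus wild type (r = 0.67). The slope is opposite for wild type 1 (r = -0.83), and for wild type 4 it is weaker and upward (r = 0.33).

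Beyond the 31, 92 further junction genes were listed, 91 were matched and 81 passed the filter. Means were higher in Arg1 ko for 45 and lower for 36 (median 0.02), 0 were called, 6 had an unadjusted limma p under 0.05 (7.41%, against 9.1% of all genes) and 5 had no overlap (6.17%, against 4.03%). Evpl, envoplakin, a plakin of the desmosome and cornified envelope, had 9.10, 9.25, 9.31 and 9.29 in Arg1 ko libraries and 8.67, 8.80, 8.94 and 8.85 in wild-type libraries. All Arg1 ko libraries lay above all wild-type ones, by 0.42 on average (SE 0.10, limma adjusted p = 0.522). Pkp1, a plakophilin mainly of stratified epithelia, averaged 8.99 ± 0.18 in Arg1 ko and 8.60 ± 0.18 in wild-type libraries (SD, n = 4 each), and Nectin1, an adhesion molecule of adherens junctions, 8.37 ± 0.10 in Arg1 ko and 8.14 ± 0.10 in wild-type libraries, both without overlap. Arhgef2, GEF-H1, a RhoA activator held at tight junctions, differed by 0.24, and Scrib, a polarity scaffold without overlap between groups, by 0.17. Lower in Arg1 ko were Cldn10, with 5.01, 4.88, 5.03 and 4.76 in Arg1 ko libraries and 5.38, 5.48, 5.14 and 5.65 in wild-type libraries, the adhesion protein Igsf5 (-0.29), the simple epithelial keratin Krt18 (-0.35) and the endothelial claudin Cldn5 (-0.35). Of these, Cldn10 was without overlap, at -0.49 (SE 0.13, limma adjusted p = 0.522). With the library labelled wild type 3 left out, Evpl (limma adjusted p = 0.0363), Cldn10 (limma adjusted p = 0.0369) and Krt18 (limma adjusted p = 0.0309) were called, 3 of 81 (3.70%), against 6.14% of all genes.

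Of 17 transcription factors and splicing regulators of epithelia, 12 had higher and 5 lower means in Arg1 ko mice (median 0.16), 0 were called, and 3 had an unadjusted limma p under 0.05 (17.6%, against 9.1% of all genes). Hnf4a, a factor of enterocyte identity, had 13.83, 13.84, 14.01 and 13.97 in Arg1 ko libraries and 13.47, 13.62, 13.79 and 13.42 in wild-type libraries, a difference of 0.34 (SE 0.11, limma adjusted p = 0.522). It was the 1 factor of 17 without overlap (5.88%, against 4.03% of all genes). The other two were the repressor Snai2, with 6.12 ± 0.10 in Arg1 ko and 5.72 ± 0.29 in wild-type libraries (SD, n = 4 each), and the splicing factor Esrp2, with a difference of 0.25. None of the other factors that bind E-boxes had an unadjusted limma p under 0.05: Snai1 differed by 0.16, Zeb1 by 0.17, Zeb2 by 0.34 and Twist1, in the other direction, by -0.20. After the length correction the values were 0.47 for Snai2, 0.26 for Snai1, 0.05 for Zeb1, 0.15 for Zeb2 and -0.09 for Twist1. With each library left out, Snai2 ranged over 0.27 to 0.50 and Snai1 over 0.03 to 0.22. In the same fits Zeb1 ranged over 0.06 to 0.26, Zeb2 over 0.19 to 0.48 and Twist1 over -0.31 to -0.13. Ovol1, a repressor that keeps cells epithelial, differed by -0.31 and the Grainyhead factor Grhl2 by 0.18 (0.09 after the length correction). With the library labelled wild type 3 left out, 2 of 17 were called (11.8%, against 6.14% of all genes), Hnf4a (0.41, limma adjusted p = 0.0432) and Ovol1 (-0.45, limma adjusted p = 0.0358). Of 7 fibroblast genes, a list that holds none of these factors, 6 had higher and 1 lower means in Arg1 ko (median difference 0.31). By limma 0 were called (0% of all genes), and the smallest adjusted p was 0.522. An unadjusted limma p under 0.05 occurred for 4 (57.1%, against 9.1% of all genes). Groups without overlap occurred for 4 (57.1%, against 4.03% of all genes). With the library labelled wild type 3 left out, 3 were called (42.9%, against 6.14% of all genes). The part of fibroblast RNA in the Snai and Zeb values was not tested.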

How the data were processed

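RNA of 8 mouse colon samples was measured by sequencing of stranded mRNA libraries, per the labels' protocols. The submitters' processing notes name the build GRCm38 and, in no stated order, DESeq2 1.16.1, featureCounts of Subread 1.5.3, the aligner STAR 2.5.2b and the aligner BWA 0.7.14-r1136, without options. What the authors deposited is 1 table of rlog values, log2 counts scaled for library size and shrunken for weak genes, which hides depth and narrows differences. No 2 libraries were alike enough to be duplicates.

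Genes were named from GENCODE vM21 (53274 of 53465 IDs had a symbol), with lengths and coordinates of its longest transcript and gene on GRCm38. Of the IDs, 24860 were 0 in all libraries. The test was limma 3.58.1 in R 4.3.3 over all non-constant genes whose mean rlog reached 3, with a prior variance that follows the mean, two-sided, at an adjusted p of 0.05. It was also run on simulated data with independent normal noise and, for each gene, the same SD in both genotypes. Those data lacked the larger wild-type SD and the length pattern seen here, so they cannot show how the test behaves with either. The length correction subtracted a natural spline with 5 degrees of freedom on log2 length from each library's deviations. Alternatives were other filters, scalings, moderation settings and libraries left out. Members, lists, classes and motifs were chosen with earlier results of these data known. Named genes were Arg1, 8 members set by name, the 6 members with the smallest p in each direction and the 4 other junction genes with the smallest p in each direction; Scrib and the regulators were named after their values were seen.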

Additional observations from a re-analysis of the deposited data

Results flagged for a closer look

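A value was picked out where the highest or lowest of 4 libraries lay apart from the rest by more of the group's range than Dixon's 95% critical value allows. This held for 3 of 62 junction gene groups, where chance alone gives about 1 in 20, and for 5 of 80 groups with the other named genes. All 5 were in wild-type libraries. In the library labelled wild type 3, Cldn3 was at 13.27 where the nearest wild-type library was at 13.75, F11r at 12.76 where the nearest was at 13.06, Krt18 at 12.91 where the nearest was at 13.43, and Arg1 at 5.02 where the nearest was at 5.57. In wild type 4, Cdh1 was at 14.72 where the nearest was at 14.40.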

How the results depend on the processing

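No paired analysis was possible because the labels give the genotypes no shared replicate numbers. Of 527 alternative values of the 31 junction genes, 483 kept direction and side of the threshold, 42 from 15 genes turned round and 2 passed it, those of Cldn4 and F11r without the library labelled wild type 3. With each library left out, the called counts were 0 to 2 junction genes and 0 to 3 other junction genes, the median difference of that second set -0.0072 to 0.11, the count of genes without overlap 0 to 7 (5.01% to 25.6% of all genes), the wild-type median SD 0.207 to 0.309 and the Arg1 difference -0.51 to -0.31. Without wild type 1 and 4 (chosen after seeing the data) that SD was 0.156 and 3 genes (9.68%; 10.9% of all genes) had no overlap. After quantile normalisation 2 had none (6.45%; 4.08% of all genes), and with epithelial identity genes set equal 1 (3.23%; 3.25% of all genes). Quantile normalisation moved the adherens median to 0.20. It turned Marveld2 to 0.0054, Pard3 to 0.0082 and Cdh1 to 0.12. Epithelial scaling, which put the median of all genes at 0.05, turned Marveld2 to 0.042, Pard3 to 0.044 and Pkp3 to 0.022. Aligned medians turned Cldn8 to -0.011, Marveld3 to -0.0075 and Jup to -0.00027, and the length correction turned Ctnna1 to -0.0047. Without wild type 1 and 4, Cldn2 was -0.30, Cldn8 -0.41, Tjp3 -0.0094, Marveld3 -0.036, Pard3 0.028, Cdh1 0.0016 and Pkp3 0.084. With 1 library left out, ranges across 0 were -0.12 to 0.26 (Cldn2), -0.25 to 0.20 (Cldn8), -0.0063 to 0.29 (Cldn15), -0.0052 to 0.064 (Tjp3), -0.050 to 0.22 (Cgn), -0.078 to 0.067 (Marveld2), -0.16 to 0.18 (Pard3), -0.11 to 0.014 (Cdh1), -0.0078 to 0.20 (Cdh17), -0.048 to 0.14 (Ctnna1), -0.066 to 0.16 (Jup), -0.012 to 0.45 (Dsp), -0.031 to 0.39 (Dsg2) and -0.10 to 0.019 (Pkp3). The cause of these turns was not tested. Unknown depth leaves counting error unmeasured.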
